A study of Mus musculus with 16 samples.

Results

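The genes of the insulin-like growth factor (IGF) system on these arrays were the ligand genes Igf1 and Igf2, the receptor genes Igf1r and Igf2r, and the binding protein genes Igfbp2, Igfbp3, Igfbp4, Igfbp5, Igfbp6 and Igfbp7. The 10 members were taken by gene symbol out of 19938 genes, each by its probe set with 1 symbol and the highest mean over 16 arrays, and all 10 had a single such probe set. The family was chosen by the high measured level of Igf2 in cells derived from induced pluripotent stem cells (iPSCs), so the levels of iPSC-derived against primary cells describe the choice and carry no test. Affymetrix arrays measured total RNA of mouse cells of a mixed C57BL/6 x 129/Ola strain with the genotype Pitx3GFP/+, in which green fluorescent protein (GFP) is carried at Pitx3, the gene of a transcription factor needed by midbrain dopaminergic (mdDA) neurons. The treated group held 5 biological replicates of iPSC-derived cells, which the labels call mdDA neurons, grown with recombinant human WNT1 and DKK3. The control group held 5 biological replicates of iPSC-derived cells without them. Primary mdDA neurons from the ventral midbrain were measured at E14.5 and at E13.5, on 3 arrays each that the labels call technical replicates, so each stage is 1 sample. Per the design text all cells were sorted for GFP, while the sample labels name the sort for primary cells only.

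IGF1 and IGF2 are secreted growth factors that act mainly through the receptor tyrosine kinase IGF1R, which drives the PI3K and AKT pathway, growth and survival. IGF2R, the mannose 6-phosphate receptor, carries IGF2 to lysosomes and so removes it. The binding proteins hold IGFs in the extracellular space, and IGFBP7 binds IGFs only weakly. In the rodent brain Igf2, an imprinted gene, is known for its expression in the choroid plexus and the meninges rather than in neurons.

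Levels below are log2 expression after RMA, a normalization that makes arrays comparable by quantiles, and 1 unit is a doubling on this scale. Levels of different genes come from different probes and are not set against each other. Array medians lay between 5.85 and 6.02, and no member lay below the lower quartile of any array. Below the array median lay Igf1 on 3 E13.5 arrays and 1 treated array, and Igf2 on 1 E13.5 array. Igfbp7 lay below it on 2 E13.5 arrays and 1 E14.5 array. The folds of Igf2 and Igfbp7 against primary cells thus rest in part on such low levels. Precision is limited by how many arrays there are. The iPSC-derived cells went against their label on most arrays. Over 9 markers of midbrain dopaminergic neurons the mean level was 6.04, 5.75, 5.98, 6.04 and 7.87 on treated arrays 1 to 5 and 6.03, 5.84, 6.02, 6.04 and 7.51 on control arrays 1 to 5. On the primary arrays it was 9.72, 9.84 and 9.71 at E14.5 and 9.80, 9.92 and 9.49 at E13.5. Of the 9 markers, 8 were at least 1 lower than in primary cells with no overlap of arrays in treated and 9 in control cells. Both arrays numbered 5 stood apart by a higher mean of neuron markers and a lower mean of pluripotency genes. Over 7 neuron markers the mean was 8.39 on treated and 8.03 on control array 5. On arrays 1 to 4 it was 6.18 to 6.55 and 6.16 to 6.64. Of these markers Nefm went the other way and was lowest on array 5 of both groups (4.604 and 4.105). Over 6 pluripotency genes the mean was 5.76 on treated and 5.84 on control array 5. On arrays 1 to 4 that mean was 7.44 to 8.78 and 7.44 to 8.34. Treated array 5 also had a higher mean of muscle markers, at 7.295 against 6.135 to 6.271 on treated arrays 1 to 4. Results are therefore also given without the arrays numbered 5. These are bulk samples, in which more cells of a type and more RNA per cell cannot be told apart.

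Igf2, and with it Igfbp4 and Igfbp7, differed most between iPSC-derived and primary cells, whereas the arrays of Igf1r overlapped between them. Windows around their RefSeq transcription starts are shown for that reason, 300 bases each from build GRCm38.p6 and 5′ to 3′ on the gene's strand. Capitals mark GC boxes (GGGCGG) and TATA boxes (TATAAA) found on either strand, with adjoining matches running together.
Igf2 start 1, chr7:142666767-142667066, strand -: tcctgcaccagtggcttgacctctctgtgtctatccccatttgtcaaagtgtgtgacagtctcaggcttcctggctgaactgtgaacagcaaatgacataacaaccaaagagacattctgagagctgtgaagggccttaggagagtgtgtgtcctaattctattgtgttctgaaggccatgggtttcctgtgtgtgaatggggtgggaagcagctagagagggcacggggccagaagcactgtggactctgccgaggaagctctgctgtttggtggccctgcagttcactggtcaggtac
Igf2 start 2, chr7:142661222-142661521, strand -: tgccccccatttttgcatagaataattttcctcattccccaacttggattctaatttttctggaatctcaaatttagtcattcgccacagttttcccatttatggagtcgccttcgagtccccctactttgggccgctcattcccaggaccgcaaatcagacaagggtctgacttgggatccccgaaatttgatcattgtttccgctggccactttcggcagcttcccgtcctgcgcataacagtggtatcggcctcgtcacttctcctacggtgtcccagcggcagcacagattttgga
Igf2 start 3, chr7:142658755-142659054, strand -: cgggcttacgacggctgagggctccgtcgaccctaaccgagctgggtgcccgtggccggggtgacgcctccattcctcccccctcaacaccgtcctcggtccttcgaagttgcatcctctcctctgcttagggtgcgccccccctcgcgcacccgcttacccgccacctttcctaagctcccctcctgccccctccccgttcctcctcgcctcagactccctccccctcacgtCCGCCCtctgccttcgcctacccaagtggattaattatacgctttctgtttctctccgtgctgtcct
Igf2 start 4, chr7:142657447-142657746, strand -: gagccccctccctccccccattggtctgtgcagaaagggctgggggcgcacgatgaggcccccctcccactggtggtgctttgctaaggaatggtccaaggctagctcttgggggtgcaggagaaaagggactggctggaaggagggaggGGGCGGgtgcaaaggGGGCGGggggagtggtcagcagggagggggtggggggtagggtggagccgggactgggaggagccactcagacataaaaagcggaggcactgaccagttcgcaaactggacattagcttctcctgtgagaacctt
Igfbp7, chr5:77407996-77408295, strand -: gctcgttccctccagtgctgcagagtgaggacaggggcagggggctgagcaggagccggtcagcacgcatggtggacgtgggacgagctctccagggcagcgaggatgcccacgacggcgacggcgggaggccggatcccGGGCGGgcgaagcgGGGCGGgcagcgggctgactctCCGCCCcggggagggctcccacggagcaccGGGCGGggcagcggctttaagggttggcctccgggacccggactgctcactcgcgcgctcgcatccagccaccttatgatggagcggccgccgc
Igfbp4, chr11:99040994-99041293, strand +: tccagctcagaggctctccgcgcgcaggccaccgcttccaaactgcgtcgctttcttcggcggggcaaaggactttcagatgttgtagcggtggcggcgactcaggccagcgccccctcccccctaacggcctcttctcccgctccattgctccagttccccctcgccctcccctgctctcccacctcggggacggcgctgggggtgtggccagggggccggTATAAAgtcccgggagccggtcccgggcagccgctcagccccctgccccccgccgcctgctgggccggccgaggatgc
Igf1r, chr7:67952007-67952306, strand +: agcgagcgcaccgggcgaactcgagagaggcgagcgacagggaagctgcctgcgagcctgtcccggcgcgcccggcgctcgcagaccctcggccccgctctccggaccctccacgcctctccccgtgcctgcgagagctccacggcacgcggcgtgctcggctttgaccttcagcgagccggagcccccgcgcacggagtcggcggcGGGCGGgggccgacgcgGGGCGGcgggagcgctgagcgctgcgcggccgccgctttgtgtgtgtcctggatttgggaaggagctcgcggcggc
Igf2 has 4 such starts, and the single value per array gives no level for each start. A match is a description of the letters and not a site of binding. All 10 members matched the promoter table, with 14 windows in all. A GC box stood in 6 of the 14 windows and a TATA box in 2, against 35.7% and 13.6% of all 32851 windows of this length. Of the Igf2 starts, the third held 1 GC box and the fourth 2, the first and second none, and none held the letters TATAAA. The Igfbp7 window held 4 GC boxes, that of Igfbp4 a TATA box and no GC box, and that of Igf1r 2 GC boxes.

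Igf2 was far higher in iPSC-derived than in primary cells, and its level hardly varied among the iPSC-derived arrays. It was at 12.04, 12.13, 12.14, 11.99 and 12.01 on treated arrays 1 to 5 and at 12.07, 12.01, 12.16, 12.06 and 12.26 on control arrays 1 to 5. The primary arrays had 6.86, 6.47 and 7.54 at E14.5 and 5.82, 5.93 and 6.28 at E13.5. No iPSC-derived array came within 4 units of any primary array. The difference was 5.58 for treated cells (47.7-fold) and 5.63 for control cells (49.5-fold), which share the primary arrays. Without the arrays numbered 5 the differences were 5.59 and 5.59. Over the 10 iPSC-derived arrays the SD of Igf2 was 0.083, and only 3.2% of all genes had a smaller one. Among the 175 genes with a mean level at most 1 below that of Igf2, or above it, 14.9% had a smaller SD, and their median SD was 0.134. Treated array 5 lay within the range of treated arrays 1 to 4 for Igf2, and control array 5 was the highest control array.

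Igf1, the other ligand gene, was at 6.25, 6.61, 6.12, 5.76 and 6.97 on treated and at 6.18, 6.78, 6.43, 5.996 and 7.20 on control arrays 1 to 5. On primary arrays it was at 6.08, 6.01 and 5.98 at E14.5 and at 5.38, 5.68 and 5.57 at E13.5. The iPSC-derived and primary arrays overlapped, since both arrays numbered 4 lay within the primary range. The mean difference from primary cells was 0.56 for treated and 0.73 for control cells. Both arrays numbered 5 were the highest of their group, at 6.97 and 7.20, and without them the differences were 0.40 and 0.56.

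**Figure D1:**
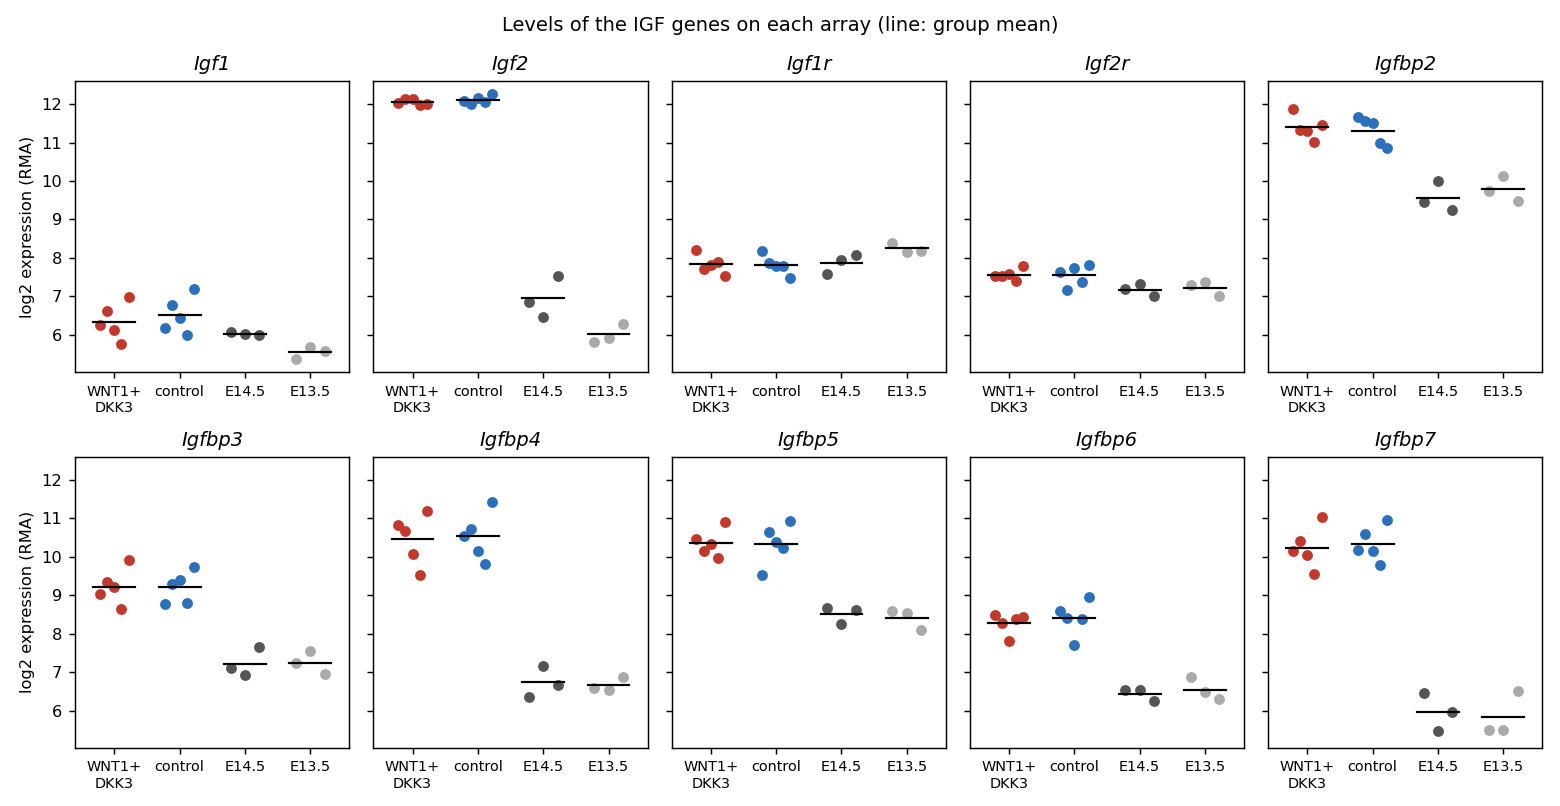
Log2 expression (y axis) of the 10 IGF genes on each array, in cells with WNT1 and DKK3 (red), control (blue), E14.5 (dark grey) and E13.5 (light grey), with points in order of array number and lines at group means. Igf2 and the 6 binding protein genes lie above all primary arrays on all 10 iPSC-derived arrays, while Igf1, Igf1r and Igf2r lie near the primary levels.

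The receptor genes were at similar levels in all groups. Igf1r was at 8.21, 7.72, 7.80, 7.90 and 7.54 on treated and at 8.18, 7.88, 7.80, 7.78 and 7.47 on control arrays. At E14.5 it was at 7.59, 7.96 and 8.07, and at E13.5 at 8.39, 8.17 and 8.19. Its difference from primary cells was -0.23 for treated and -0.24 for control cells, with overlapping arrays. Without the arrays numbered 5 these were -0.15 and -0.15. Against E14.5 alone the differences of Igf1r were -0.04 for treated and -0.05 for control cells, and against E13.5 alone -0.41 and -0.42. Igf2r, which takes up IGF2 for degradation, was at 7.53, 7.53, 7.57, 7.40 and 7.80 on treated and 7.64, 7.16, 7.74, 7.37 and 7.83 on control arrays. Its primary levels were 7.20 and 7.32 on E14.5 arrays 1 and 2, with array 3 the lowest of all primary arrays, and 7.30, 7.38 and 7.01 at E13.5. The difference was 0.36 for treated cells, whose lowest array lay 0.02 above the highest primary array, and 0.35 for control cells, whose arrays overlapped with primary ones, and 0.30 and 0.28 without the arrays numbered 5.

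All 6 binding protein genes were higher on each iPSC-derived array than on any primary array. Of all genes, regardless of size, 16.1% were higher without overlap in treated and 15.9% in control cells. Igfbp7, which encodes a matrix-associated protein also made by blood vessels, stood furthest apart. It was at 10.14, 10.40, 10.05, 9.55 and 11.03 on treated and at 10.16, 10.59, 10.14, 9.78 and 10.95 on control arrays, against 6.45, 5.47 and 5.97 at E14.5 and 5.49, 5.49 and 6.52 at E13.5. Its difference was 4.34 for treated cells (20.2-fold) and 4.43 for control cells (21.5-fold), and 4.14 and 4.27 without the arrays numbered 5. Igfbp4, whose protein mostly restrains IGF action until it is cut by the protease PAPP-A, was next. Its levels were 10.82, 10.66, 10.06, 9.52 and 11.19 on treated and 10.54, 10.73, 10.15, 9.81 and 11.43 on control arrays, and 6.36, 7.16 and 6.67 at E14.5 and 6.58, 6.53 and 6.87 at E13.5. This gave differences of 3.76 for treated and 3.84 (14.3-fold) for control cells, and 3.57 and 3.61 without the arrays numbered 5. Arrays 4 were the lowest and arrays 5 the highest of both groups for Igfbp4 and Igfbp7.

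The other 4 binding protein genes differed from primary cells by less. Igfbp2, a binding protein gene of the embryonic nervous system and choroid plexus, was at 11.87, 11.34, 11.31, 11.01 and 11.45 on treated and 11.66, 11.55, 11.50, 10.99 and 10.85 on control arrays, against 9.45, 10.003 and 9.24 at E14.5 and 9.75, 10.14 and 9.49 at E13.5. Its differences were 1.72 and 1.63. Unlike Igfbp4 and Igfbp7 it was not highest on the arrays numbered 5, and control array 5 was the lowest of all 10. Igfbp3, which encodes the main IGF carrier in blood, averaged 9.22 ± 0.47 in treated cells (SD over 5 arrays, as for the next genes) and 9.20 ± 0.41 in control cells, with stage means of 7.22 at E14.5 and 7.25 at E13.5. Igfbp5, which encodes a binding protein that attaches to the extracellular matrix, averaged 10.36 ± 0.35 in treated and 10.34 ± 0.52 in control cells, with 8.51 at E14.5 and 8.40 at E13.5. Igfbp6, whose protein prefers IGF2 over IGF1, averaged 8.28 ± 0.27 in treated and 8.40 ± 0.45 in control cells, with 6.43 at E14.5 and 6.55 at E13.5. For these 3 genes the differences lay between 1.79 and 1.99 for treated and between 1.88 and 1.97 for control cells. Without the arrays numbered 5, Igfbp2 differed by 1.70 in treated and 1.74 in control cells, and the 3 others by 1.75 to 1.82 and 1.74 to 1.84.

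Counted by a difference of at least 1 with no overlap of arrays, 7 of 10 members were higher and 0 lower in treated than in primary cells, where 10.3% of all 19938 genes were higher and 7.19% lower by that rule. In control cells the same 7, Igf2 and Igfbp2 to Igfbp7, were higher and 0 lower, beside 10.3% and 7.61% of all genes. The median difference over the 10 members was 1.85 for treated and 1.90 for control cells, and -0.09 and -0.11 over all genes. Nothing is read from these counts, because this contrast chose the family. Without the arrays numbered 5, 7 members were higher in either group.

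**Figure D2:**
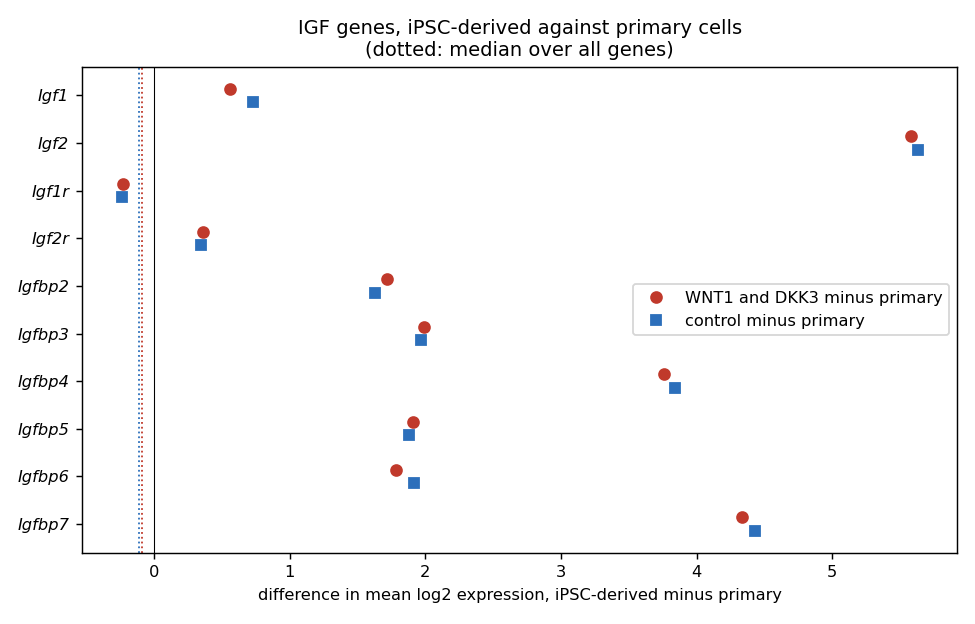
Difference in mean log2 expression (x axis) between iPSC-derived and primary cells for each IGF gene (rows), for cells with WNT1 and DKK3 (red circles) and control cells (blue squares), with dotted lines at the medians over all genes. Igf2 lies at 5.58 and 5.63, Igfbp7 and Igfbp4 follow, and Igf1r lies at -0.23 and -0.24.

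Markers of several other cell types were high in the same iPSC-derived cells, counted by the rule of at least 1 without overlap. Beside the counts of these lists, 10.3% of all genes were higher in each group by that rule. Of all genes 7.19% were lower in treated and 7.61% in control cells. A count of 0 or 1 in a list is near these shares. All 10 markers of fibroblasts, mesenchyme and meninges were at least 1 higher than in primary cells without overlap, in treated as in control cells. Their mean level was 9.35, 9.56, 9.20, 8.91 and 9.88 on treated and 9.31, 9.79, 9.41, 9.02 and 9.97 on control arrays, and 5.66 to 5.78 at E14.5 and 5.48 to 5.73 at E13.5. The proteoglycan gene Dcn was at 11.30 in treated, 11.50 in control, 6.11 in E14.5 and 5.53 in E13.5 cells. Of 8 choroid plexus markers, 5 were higher and 1 lower in treated, and 4 higher and 0 lower in control cells. Ttr, the transthyretin gene of the choroid plexus and of endoderm, was at 12.99 in treated, 12.87 in control, 5.86 in E14.5 and 6.54 in E13.5 cells. The mean over the choroid plexus list was 7.68 to 8.11 in treated and 7.24 to 8.45 in control cells, 6.04 to 6.12 at E14.5 and 6.13 to 6.33 at E13.5. Of 8 astrocyte and radial glia markers, 6 were higher and 1 lower in each group, among them Gja1 at 11.07 in treated, 11.13 in control, 5.70 in E14.5 and 5.21 in E13.5 cells. Of 7 endothelial markers 3 were higher in each group, and of 8 pericyte and smooth muscle markers 3 were higher and 1 lower. The pericyte and smooth muscle list had a median difference of -0.006 for treated and -0.06 for control cells. All 7 general neuron markers were lower in each group. Of 9 muscle markers 4 were higher in treated and 3 in control cells. Of 8 endoderm markers 1 was lower in each group, and of 6 pluripotency genes 1 was higher. The pluripotency list had a median difference of 1.91 for treated and 1.96 for control cells. Its mean was 7.44 to 8.78 on treated and 7.44 to 8.34 on control arrays 1 to 4. On arrays 5 it was 5.76 and 5.84, and on primary arrays 5.41 to 5.94 at E14.5 and 5.85 to 5.95 at E13.5. Dppa5a, Nanog and Pou5f1 lay above all primary arrays on arrays 1 to 4 and overlapped only through arrays 5. Of 7 microglia markers 1 was higher (Csf1r) and 0 lower in treated cells, and 1 was higher (Csf1r) and 1 lower (C1qb) in control cells, with list medians of -0.31 and -0.32. RMA values have no true 0, so no marker can be called absent, and the part of these cell types in the levels of the IGF genes was not tested.

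Among the 10 iPSC-derived arrays, Igf1 was high where the mesenchyme markers were high. The order of the arrays by Igf1 was the order by the mean of the 10 mesenchyme markers (Spearman's rho 1.0, Pearson's r 0.989, 10 arrays), from treated array 4 at the low end to control array 5 at the high end. Igfbp7 followed with r 0.980 (rho 0.939), Igfbp4 with 0.919 (0.903), Igfbp3 with 0.879 (0.879) and Igfbp5 with 0.722 (0.770). Without the arrays numbered 5, over 8 arrays, r was 0.985 for Igf1, 0.981 for Igfbp7, 0.833 for Igfbp4, 0.762 for Igfbp3 and 0.443 for Igfbp5. For Igf2 r was 0.352 over 10 and 0.194 over 8 arrays, and its level spanned 0.27 units. Igfbp2 had 0.094 over 10 and 0.610 over 8 arrays, and Igfbp6 had 0.374 and -0.027. Igf1r had -0.533 and -0.029, and Igf2r 0.376 and -0.166. This list was picked out of 11 marker lists after the values were seen, and others ran nearly as closely with some members. The mean of the pericyte and smooth muscle markers had r 0.910 with Igf1, 0.918 with Igfbp7, 0.880 with Igfbp4 and 0.850 with Igfbp3 over 10 arrays (0.867, 0.856, 0.798 and 0.706 over 8). The general neuron markers had r 0.762 with Igf1, 0.828 with Igfbp7 and 0.782 with Igfbp4 over 10 arrays (0.26, 0.425 and 0.672 over 8). The midbrain dopaminergic markers had r 0.67 with Igf1 and 0.724 with Igfbp7 over 10 arrays, but -0.779 and -0.741 over 8. The pluripotency genes had r -0.463 with Igf1 and -0.507 with Igfbp7 over 10 arrays, but 0.857 and 0.846 over 8. The endoderm markers ran the other way, with r -0.895 for Igfbp4, -0.828 for Igfbp7 and -0.806 for Igf1 over 10 arrays. Igfbp2 and Igf1r were high where the choroid plexus markers were high, with r 0.814 (rho 0.903) and 0.770 (0.709) over 10 arrays, and 0.721 and 0.868 over 8. This was not particular to that list. The general neuron markers had r 0.838 with Igfbp2 and 0.878 with Igf1r over 8 arrays, but -0.13 and -0.568 over 10. The endothelial markers had r -0.881 with Igfbp5, -0.859 with Igfbp3 and -0.772 with Igfbp7 over 10 arrays (-0.800, -0.607 and -0.344 over 8). With Igf1 and Igfbp4 they had r -0.74 and -0.721 over 10 arrays (-0.393 and -0.402 over 8). Igf1r went the other way, with 0.631 and 0.136, and Igfbp2 had 0.046 and -0.324. With the astrocyte and radial glia markers Igfbp5 had r 0.019 over 10 and 0.886 over 8 arrays. No p is given, since treated and control arrays of the same number, from 2 to 5, deviated together and are not independent.

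**Figure D3:**
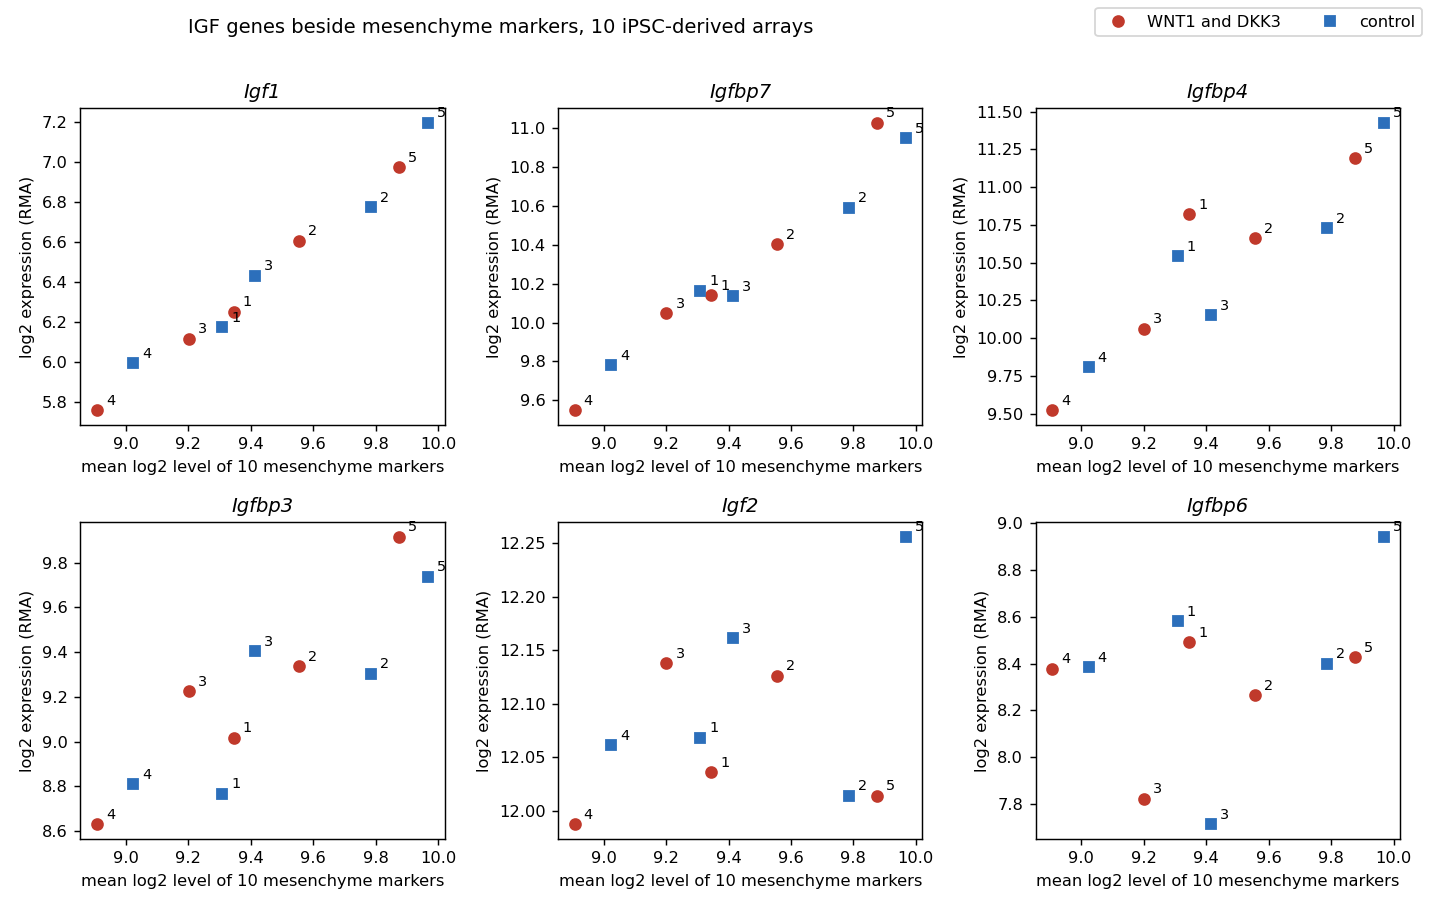
Log2 expression (y axes) of 6 IGF genes against the mean log2 level of 10 mesenchyme markers (x axes) on the 10 iPSC-derived arrays, with WNT1 and DKK3 (red circles) or control (blue squares), each point with its array number. Igf1 and Igfbp7 run along the markers, with arrays 4 at the low and arrays 5 at the high end, while Igf2 and Igfbp6 do not.

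Treated and control cells were compared to ask whether WNT1 and DKK3 shifted the IGF genes, a contrast that did not choose them. No member passed with limma over all 19938 genes: 0 were higher and 0 lower, the smallest adjusted p among the members was 1.0, and 0 of 10 had an unadjusted p under 0.05. Over all genes 0.0% passed in each direction and 1.5% had an unadjusted p under 0.05. The log2 difference was -0.05 (95% interval -0.22 to 0.11) for Igf2, -0.17 (95% interval -0.75 to 0.41) for Igf1, 0.01 (95% interval -0.31 to 0.34) for Igf1r and 0.02 (95% interval -0.28 to 0.31) for Igf2r. For the binding proteins it was 0.09 (95% interval -0.34 to 0.51) for Igfbp2, 0.02 (95% interval -0.52 to 0.56) for Igfbp3 and -0.08 (95% interval -0.85 to 0.69) for Igfbp4. It was 0.02 (95% interval -0.52 to 0.57) for Igfbp5, -0.13 (95% interval -0.59 to 0.33) for Igfbp6 and -0.09 (95% interval -0.70 to 0.52) for Igfbp7. The signs of Igf1r, Igf2r and Igfbp3 turned when arrays were centred on their medians. Every interval holds 0 and lies within 1 unit, which is a 2-fold change, in either direction. In this fit, which has no replicate block, the interval of Igf2 was the narrowest and that of Igfbp4 the widest. Without control array 5 the difference of Igf1 was -0.002 and that of Igf2 -0.016, and without treated array 5 that of Igf1 was -0.33. An exact two-sided permutation test over 252 assignments of the arrays gave p from 0.365 for Igf2 to 0.937 for Igf2r, Igfbp3 and Igfbp5, where the smallest possible is 0.00794. Both tests treat the 10 arrays as independent, although arrays of the same number, from 2 to 5, deviated together and the labels do not say whether they share a source. The median difference was -0.02 over the members and 0.02 over all genes.

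**Figure D4:**
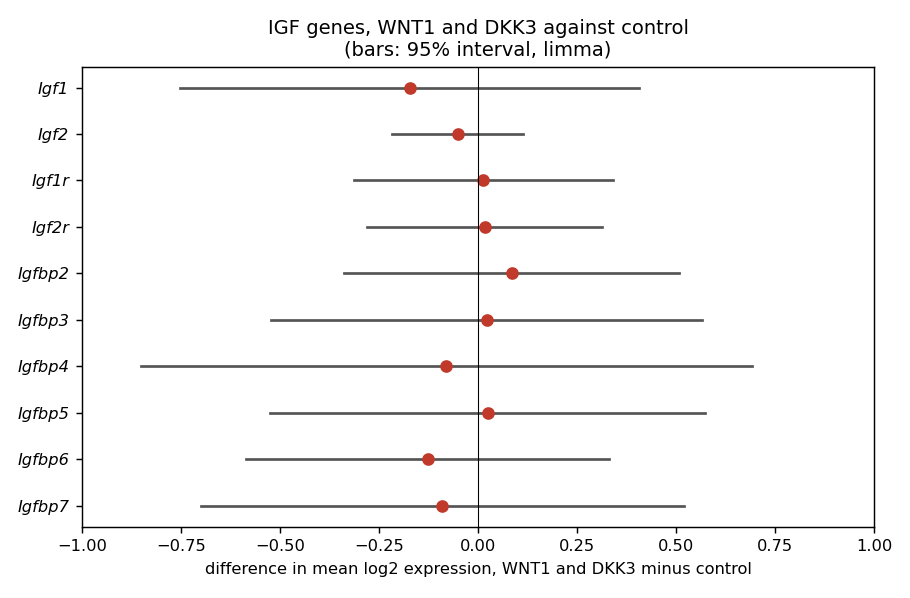
Difference in mean log2 expression (x axis) between cells with WNT1 and DKK3 and control cells for each IGF gene (rows), with 95% intervals from limma over 5 and 5 arrays. All intervals include 0. The narrowest, of Igf2, runs from -0.22 to 0.11, and the widest, of Igfbp4, from -0.85 to 0.69.

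Between the primary stages, which are 1 sample each and allow no test, the ligand genes were higher at E14.5 than at E13.5. Igf2 was higher by 0.94 and Igf1 by 0.48, in both cases with no overlap of the 3 and 3 technical arrays. Igf1r was lower by a difference of -0.37, also without overlap. Regardless of size, 4.75% of all genes were higher and 4.93% lower with no overlap. By the rule of at least 1 without overlap, 0 members were higher and 0 lower, beside 0.176% and 0.0652% of all genes. Without E13.5 array 3, or without E14.5 array 2, 1 member passed this rule, Igf2. E14.5 array 3 held the highest primary Igf2 level, at 7.54. It also held the highest primary mean of the astrocyte and radial glia list, at 7.115. Of that list Gja1, at 6.77, was at its highest primary level there, while Gfap, Slc1a3 and Sox9 were not. The mesenchyme mean of 5.66 on that array was the lowest at that stage. Of the mesenchyme list Dcn, at 6.34, was at its highest primary level there, while Postn, Fn1 and Lum were not. The part of other cells in this Igf2 level was not tested. The other 7 members overlapped between the stages, with differences from -0.23 to 0.13.

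Ordered by mean level, Igf2, Igf1, Igfbp4, Igfbp6 and Igfbp7 had the highest mean in control, then in treated, then in primary cells. Igf2r, Igfbp2, Igfbp3 and Igfbp5 had treated before control cells. No difference between treated and control cells was larger than the spread between arrays for any member. Igf1r had the order E13.5, E14.5, treated and control, and of these neighbours only E13.5 and E14.5 did not overlap.

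Downstream and around these genes, lists of other IGF pathway genes showed mixed levels against primary cells, by the same rule of at least 1 without overlap. Beside the counts of this and the following lists, 10.3% of all genes were higher in each group by that rule. Lower were 7.19% of all genes in treated and 7.61% in control cells. Of 15 receptor and adaptor genes, 2 were higher and 0 lower in each group. These were Shc1, an adaptor that links receptors to Ras, at 7.92 in treated, 7.96 in control, 5.40 in E14.5 and 5.83 in E13.5 cells, and Gab1, a docking protein, at 9.77 in treated, 9.78 in control, 7.83 in E14.5 and 7.67 in E13.5 cells. The insulin receptor gene Insr, whose protein also binds IGF2, was at 8.89 in treated, 8.88 in control, 9.51 in E14.5 and 9.37 in E13.5 cells, with overlapping arrays. Grb10, an imprinted gene whose protein dampens insulin and IGF receptor signalling, was at 7.13 in treated, 6.90 in control, 8.29 in E14.5 and 8.24 in E13.5 cells and overlapped too, since arrays 5 were high. Of 21 measured genes of PI3K, AKT and mTOR signalling, 4 were higher and 2 lower in each group. The 2 lower genes were not among the 4 with the largest differences and are not named. Pik3cb, a catalytic PI3K subunit gene, was at 8.80 in treated, 8.89 in control, 6.61 in E14.5 and 7.07 in E13.5 cells, and Eif4ebp1, the gene of a translation repressor controlled by mTOR, at 8.94 in treated, 8.97 in control, 6.91 in E14.5 and 7.27 in E13.5 cells. The forkhead factor genes Foxo1 and Foxo4, whose proteins AKT holds out of the nucleus, were higher by 1.38 and 1.25 in treated and by 1.44 and 1.38 in control cells.

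Of 18 genes for IGFBP proteases and other binding or carrier proteins, 4 were higher in treated and 5 in control cells, and 0 lower. Vtn, the gene of vitronectin, which can bind IGF complexes in the matrix, was at 10.29 in treated, 10.64 in control, 6.60 in E14.5 and 6.05 in E13.5 cells. Htra1, a secreted serine protease gene, was at 7.72 in treated, 7.60 in control, 5.29 in E14.5 and 5.16 in E13.5 cells, with arrays 5 above the rest. Igf2bp1, which encodes a protein that binds Igf2 messenger RNA, was at 9.22 in treated, 9.07 in control, 7.18 in E14.5 and 7.58 in E13.5 cells. Its arrays overlapped with primary ones because treated and control arrays 5, at 8.02 and 7.998, lay below the highest primary array. Of the 5 measured genes in that list 0 were higher or lower by the rule.

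Among 25 measured imprinted genes, 7 were higher and 5 lower in each group. Slc38a4, an amino acid transporter gene, was at 9.90 in treated, 9.91 in control, 4.71 in E14.5 and 4.87 in E13.5 cells. Plagl1, a zinc finger factor gene of the imprinted network, was at 10.51 in treated, 10.48 in control, 7.17 in E14.5 and 7.66 in E13.5 cells. Airn, the noncoding RNA whose transcription silences the paternal Igf2r allele in mice, was at 8.19 in treated, 8.11 in control, 5.64 in E14.5 and 5.29 in E13.5 cells, while Igf2r itself differed by 0.36 and 0.35. Airn overlaps Igf2r on the opposite strand, and no source used here says whether the probes keep the strands apart. Magel2, another imprinted gene, was lower in iPSC-derived cells, at 5.70 in treated, 5.83 in control, 9.07 in E14.5 and 8.96 in E13.5 cells. H19, the neighbour of Igf2, had no probe set with 1 symbol and was not analysed here. In the limma comparison of treated with control cells, 0 of these 84 pathway genes passed.

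The genes most like Igf2 over the 10 iPSC-derived arrays, by Pearson's correlation among 14133 genes searched, were Galp (r 0.872), Tssk3 (0.865), Cenpx (0.860), Kdelr1 (0.843) and Hnrnpul1 (0.830). Without the arrays numbered 5 they had r of 0.771, 0.812, 0.690, 0.930 and 0.712 over 8 arrays. Over the 10 arrays Igf2 itself spanned only 0.27 units. Galp lay between 4.959 and 5.157, below every array median, and Tssk3 between 5.774 and 6.106, near the medians. Levels were higher for Cenpx (8.001 to 8.679), Kdelr1 (9.675 to 9.99) and Hnrnpul1 (9.143 to 9.419). These correlations thus rest on small differences between arrays, and shared regulation with Igf2 was not tested. No p is given for values picked as the highest.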

How the data were processed

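Arrays were read on an Affymetrix platform, and the deposited values are log2 expression made by the authors with RMA in Affymetrix Expression Console 1.2, per the submitters' processing notes. RNA was amplified before labelling, per the labels' protocols. Probe sets numbered 35556, of which 21789 had 1 gene symbol in the platform annotation, 1621 several and 12146 were not listed. Of several probe sets of a gene, the one with the highest mean over 16 arrays was used, which left 19938 genes. Members and gene lists were chosen with earlier results of these data known. Treated and control arrays (5 each) were compared with limma 3.58.1 (R 4.3.3), two-sided, with Benjamini-Hochberg adjustment over all genes and a threshold of 0.05, after the script was tested on simulated data. Exact permutation tests over arrays were added for single genes (numpy 2.4.6). iPSC-derived cells were set against the mean of the stage means, and stages against each other, by differences only: at least 1 on the log2 scale with no overlap of arrays. No label ties a biological replicate to its own culture, and p-values then reflect only how these arrays vary, which may be technical. Named genes were all members, genes among the 4 of each list with the largest differences from primary cells, Insr, and the 5 most like Igf2. Windows around transcription starts came from RefSeq, GRCm38.p6. Alternatives were leaving out each array or both arrays numbered 5, centring, a filter on low genes, mean over probe sets, limma with an intensity trend, a replicate block, other minimum differences, and single stages.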

Additional observations from a re-analysis of the deposited data

Results flagged for a closer look

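A single array was called far from the rest of its group by its gap to the nearest array as a share of the group's range. The shares of the arrays so called ran from 0.743 to 0.853, whatever the gap in log2 units. No IGF member had such an array, in 20 groups of 5 arrays examined. Igfbp6 on treated array 3, at 7.821 with the other treated arrays at 8.265 to 8.49, was not called. Among the named pathway genes and members together, 6 of 62 groups of 5 arrays had one. These groups share the same arrays, so no rate expected by chance is set beside this count. On treated array 5, Grb10 was at 8.29, with the other treated arrays at 6.71 to 6.95. Htra1 stood apart on array 5 of both groups, at 8.97 in treated cells (others 7.18 to 7.63) and at 8.70 in control cells (others 7.13 to 7.45). Magel2 was at 6.09 on treated array 5, with the others at 5.56 to 5.70. Insr was low on treated array 2, at 8.50 with the others at 8.94 to 9.07. Foxo1 was low on treated array 4, at 6.74 with the others at 6.87 to 6.90.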

How the results depend on the processing

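No member passed the limma threshold for treated against control cells under any alternative run. With the replicate block 1 gene passed in limma, against 0 without it (Mir17, higher by 0.95 in treated cells, adjusted p = 0.0153, named after its value was seen), 834 genes against 300 had an unadjusted p under 0.05, and the smallest adjusted p of a member was 0.999. With the block Igf1 had an interval of -0.37 to 0.02 (unadjusted p = 0.0738 in limma, against 0.524 without it; lower in treated cells in 4 of 5 equal-numbered pairs), and Igf1r had the narrowest interval, -0.17 to 0.19. The numbers were not taken as pairs in the main fit, because no label ties same-numbered arrays to a common source. Same-numbered deviations correlated at 0.045 for number 1 and at 0.435 to 0.798 for the others. Treated arrays 2, 4 and 5 and control arrays 2 to 5 correlated best with their own number, and the remaining arrays did not. With the block the standard error fell from 0.263 to 0.086 for Igf1 and from 0.350 to 0.098 for Igfbp4. It rose only for Igf2, from 0.076 to 0.083. The main intervals of the other members are thus wider than with the block. Signs turned for small differences. Without both arrays numbered 5, Igf1r was at -0.001, Igfbp2 at -0.042 and Igfbp3 at -0.018. With centred arrays, Igf1r was at -0.010, Igf2r at -0.007 and Igfbp3 at -0.002. Without both arrays numbered 5, Igf2 was at -0.004. Leaving out single arrays gave -0.331 to -0.002 for Igf1, -0.076 to -0.016 for Igf2, -0.081 to 0.103 for Igf1r, -0.081 to 0.086 for Igf2r, -0.033 to 0.182 for Igfbp2, -0.151 to 0.170 for Igfbp3 and -0.265 to 0.152 for Igfbp4. It gave -0.178 to 0.170 for Igfbp5, -0.300 to 0.008 for Igfbp6 and -0.288 to 0.082 for Igfbp7. The cause was not tested. With a minimum difference of 2, 3 members were higher than in primary cells in treated and 3 in control cells, by construction. For E14.5 against E13.5, 1 member, Igf2, was higher without E13.5 array 3, without E14.5 array 2 or with a minimum of 0.5. Against E14.5 alone Igf2 differed by 5.10 (treated) and 5.16 (control), and against E13.5 alone by 6.05 and 6.10. Igf1 differed by 0.32 and 0.49 against E14.5 alone, and by 0.80 and 0.97 against E13.5 alone.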
